A study of Danio rerio with 4 samples.

Results

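A set of 10 genes that mark microglia and other leukocytes of the brain was followed through brain RNA of zebrafish with a deletion in atrn, the gene of the transmembrane protein attractin. The genes are csf1ra, csf1rb, mpeg1, p2ry12, c1qa, c1qb, c1qc, coro1a, lcp1 and ptprc; they were named as markers of these cells, with no threshold on a measured value. All 10 are among the 31030 genes of the deposited count table. In the table mpeg1 stands under the symbol mpeg1.1, and p2ry12 was found by its gene number. The table has 4 libraries of brain RNA from fish at 4 mpf (months post fertilization), 1 each for female atrn-/-, female wild type, male atrn-/- and male wild type. The mutants carry a small CRISPR/Cas9 deletion in an exon of atrn that is predicted to cut the protein short, and the deletion is in the germ line, not limited to any cell type. The study describes RNA of a single brain in one place and several brains per group in another, so the number of brains behind each library is unknown. With 1 library per sex and genotype, a difference within a sex has no replicate check and is given without a p-value.

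Microglia are the resident macrophages of the brain, which clear dying cells and debris. Their survival depends on the receptor tyrosine kinase CSF1R, which zebrafish carry in the copies csf1ra and csf1rb. In mammals, microglia sense released nucleotides through P2RY12 and are the main source in the brain of C1q, the molecule that starts the classical complement pathway. L-plastin, coronin-1A and the phosphatase CD45, the products of lcp1, coro1a and ptprc, are shared by leukocytes in general, so these 3 genes are not specific to microglia.

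The libraries held between 8654693 counts (female WT) and 16254750 counts (male atrn-/-), with edgeR scaling factors between 0.992 and 1.01. The targeted gene atrn had 423 counts (32.3 CPM, counts scaled to a library of 1000000) in female atrn-/-, against 662 counts (75.4 CPM) in female WT. It had 462 counts (28.6 CPM) in male atrn-/-, against 808 counts (50.5 CPM) in male WT, so that it was lower in the mutant of each sex. Genes of neurons summed to between 14407 and 15503 CPM in the 4 libraries and genes of oligodendrocytes to between 10655 and 14328 CPM, so markers of brain tissue were high throughout. One library stood apart in skeletal muscle genes, which summed to 994 CPM in female atrn-/- against 5803 CPM in female WT, and to 502 CPM in male atrn-/- against 715 CPM in male WT. Genes of red blood cells summed to 1342 CPM in female atrn-/- against 2588 CPM in female WT, and to 1334 CPM in male atrn-/- against 3514 CPM in male WT. Photoreceptor genes summed to 109 CPM in female atrn-/- against 43.9 CPM in female WT, and to 231 CPM in male atrn-/- against 38.9 CPM in male WT. Of 31 found, 21 were tested, and 20 of these were highest in male atrn-/- (21.3% of all genes were). In both mutants 20 lay above both wild-type libraries (18.6% of all genes did), and exorh and arr3a were called higher (0.0652% of all genes were). The part of muscle, blood or photoreceptor RNA in the results that follow was not tested. In RNA of whole brains, fewer cells of a type and less RNA per cell cannot be told apart.

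Of the 9 microglia and leukocyte genes with enough counts to test, 0 passed the adjusted threshold between the genotypes (0.211% of all genes did) or between the sexes (0.14% did), and their differences ran in several directions. The C1q genes and coro1a were higher in both mutant libraries than in both wild-type libraries, as were 18.6% of all genes tested and most of the photoreceptor genes. The CSF1 receptor genes were lower in female atrn-/- than in female WT, and mpeg1 was about as high in both female libraries but near 2-fold higher in male atrn-/- than in male WT. For csf1ra, csf1rb, mpeg1 and lcp1, both female libraries lay above both male libraries, as they did for 18.6% of all genes tested. Summed over the 10 genes, the level was 97.7 CPM (1281 counts) in female atrn-/- against 108 CPM (945 counts) in female WT, and 83.5 CPM (1346 counts) in male atrn-/- against 65.0 CPM (1039 counts) in male WT. Male WT was thus the lowest of the 4 libraries in this sum.

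**Figure D1:**
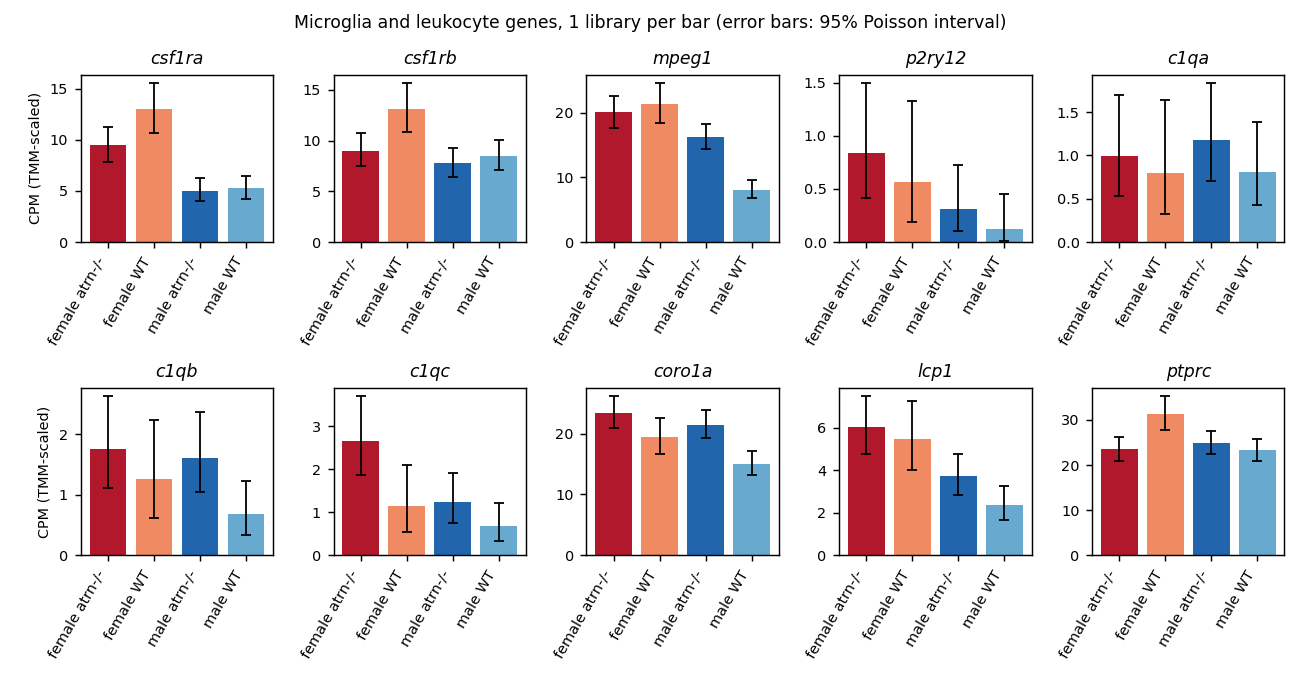
Level of each microglia and leukocyte gene in CPM in the 4 brain libraries, 1 bar per library on a linear axis that starts at 0 and has its own scale in each panel, with exact 95% Poisson intervals that cover counting error only. Male WT is the lowest bar for mpeg1 (8.13 CPM) and coro1a (15.1 CPM), both male bars lie below both female bars for csf1ra, and the intervals are wide for p2ry12 and the C1q genes, which rest on few counts.

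The CSF1 receptor genes were measured at 81 to 136 counts per library. The kinase gene csf1ra, which in zebrafish is also needed by yellow pigment cells, had 124 counts (9.46 CPM) in female atrn-/- against 114 counts (12.98 CPM) in female WT, and 81 counts (5.02 CPM) in male atrn-/- against 84 counts (5.25 CPM) in male WT. Both female libraries were high and both male libraries low, and the mutant and wild-type libraries overlapped. With a prior count of 2, as below unless stated, the mutant-to-wild-type log2 ratio was -0.45 in females (95% interval -0.84 to -0.08) and -0.06 in males (95% interval -0.52 to 0.39). All such intervals are exact Clopper-Pearson intervals on the reads of both libraries, computed without a prior count, and cover counting error only. With the sexes combined, the log2 fold change was -0.27 (SE 0.241). Its adjusted p = 0.797 came from edgeR's quasi-likelihood test, in a fit of sex and genotype, adjusted after Benjamini and Hochberg over all genes tested. The fold change was 0.08 without male atrn-/- and 0.46 without female WT. Each fit without 1 library, here and below, held only the term tested, so sex and genotype are mixed in it.

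The other copy, csf1rb, is the one expressed in blood-forming cells of the zebrafish. It had 118 counts (8.999 CPM) in female atrn-/- against 115 counts (13.1 CPM) in female WT, and 125 counts (7.75 CPM) in male atrn-/- against 136 counts (8.50 CPM) in male WT. As with csf1ra, female WT was the highest library and male atrn-/- the lowest, while female atrn-/- lay near male WT. The log2 ratio was -0.53 in females (95% interval -0.92 to -0.16) and -0.13 in males (95% interval -0.50 to 0.23), and the fold change over both sexes was -0.33 on the log2 scale (SE 0.227, adjusted p = 0.718 in edgeR's test). The receptor genes were the only ones of the 9 tested whose ratio was below 0 in both sexes, which held for 28.5% of all genes tested.

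The gene mpeg1 encodes perforin-2, a pore-forming protein that macrophages use against bacteria, and its promoter marks macrophages and microglia in transgenic zebrafish. It had 263 counts (20.1 CPM) in female atrn-/- against 188 counts (21.4 CPM) in female WT, and 262 counts (16.2 CPM) in male atrn-/- against 130 counts (8.13 CPM) in male WT. Male WT stood below the 3 other libraries, and the genotypes overlapped because female WT was the highest. The log2 ratio was 0.99 in males (95% interval 0.69 to 1.31) and -0.09 in females (95% interval -0.37 to 0.18). Over both sexes it was 0.44 (SE 0.273, adjusted p = 0.690 in edgeR's test), and without the male WT library it was -0.24. The related copies mpeg1.2 and mpeg1.3 had at most 12 counts and 1 count in any library. How the counting divided reads between the copies is not given in the sources used here, so the level of mpeg1 alone is uncertain to that extent.

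The nucleotide receptor gene p2ry12 had 11 counts (0.839 CPM) in female atrn-/- against 5 counts (0.569 CPM) in female WT, and 5 counts (0.310 CPM) in male atrn-/- against 2 counts (0.125 CPM) in male WT. Its mean of 5.75 counts was under the minimum of 10, so it was the single gene of the 10 that was not tested. Computed without a prior count, its mutant-to-wild-type log2 ratio was 0.56 in females (95% interval -1.08 to 2.44) and 1.31 in males (95% interval -1.30 to 4.70). A difference between the genotypes was not detectable at this depth, and female atrn-/- was the highest library. A pair of other receptor genes of microglia were also sparse. The lipid receptor gene trem2 had 0 counts in female atrn-/- against 2 in female WT and 0 in both male libraries, and the adenine nucleotide receptor gene p2ry13 had at most 5 counts in any library.

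C1q is built from 3 chains, and each chain has its own gene. The A-chain gene c1qa had 13 counts (0.991 CPM) in female atrn-/- against 7 counts (0.797 CPM) in female WT, and 19 counts (1.18 CPM) in male atrn-/- against 13 counts (0.813 CPM) in male WT. The B-chain gene c1qb had 23 counts (1.75 CPM) in female atrn-/- against 11 counts (1.25 CPM) in female WT, and 26 counts (1.61 CPM) in male atrn-/- against 11 counts (0.688 CPM) in male WT. The C-chain gene c1qc had 35 counts (2.67 CPM) in female atrn-/- against 10 counts (1.14 CPM) in female WT, and 20 counts (1.24 CPM) in male atrn-/- against 11 counts (0.688 CPM) in male WT. For each chain, both mutant libraries lay above both wild-type libraries. In c1qa the lowest mutant and highest wild-type libraries were 0.991 CPM in female atrn-/- and 0.813 CPM in male WT, in c1qc 1.24 CPM in male atrn-/- and 1.14 CPM in female WT, so that the gap was small for both.

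The C-chain gene had its larger ratio in females, a log2 ratio of 1.13 (95% interval 0.18 to 2.41), against 0.73 in males (95% interval -0.28 to 2.06). The B-chain gene had its larger ratio in males, at 1.07 (95% interval 0.16 to 2.39) against 0.44 in females (95% interval -0.61 to 1.67), and the difference between the sexes was not tested. For c1qa both intervals included 0, at a log2 ratio of 0.27 in females (95% interval -1.12 to 1.88) and 0.47 in males (95% interval -0.56 to 1.68). In the combined test the log2 fold changes were 1.04 for c1qc (SE 0.538, adjusted p = 0.627), 0.86 for c1qb (SE 0.558, adjusted p = 0.708) and 0.43 for c1qa (SE 0.599, adjusted p = 0.876), by edgeR's quasi-likelihood test. Without the female atrn-/- library the log2 fold change of c1qc was the lowest of its leave-one-out values, 0.48.

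The 3 chain genes together had 71 counts (5.41 CPM) in female atrn-/- against 28 counts (3.19 CPM) in female WT, and 65 counts (4.03 CPM) in male atrn-/- against 35 counts (2.19 CPM) in male WT. Without a prior count, the log2 ratio of their sum was 0.76 in females (95% interval 0.11 to 1.45) and 0.88 in males (95% interval 0.27 to 1.52). The sum was not tested. Among single genes tested, the counting interval lay above 0 for 18.4% in females and 20.3% in males. In the reference gene table c1qb, c1qc and c1qa are consecutive neighbours. The sum of the 7 other genes had, likewise, a log2 ratio of -0.18 in females (95% interval -0.30 to -0.05) and 0.34 in males (95% interval 0.22 to 0.46). The sum of the C1q genes was thus higher in the mutant of each sex. So were coro1a and lcp1 taken singly, but their intervals in females included 0. In all, 5 of the 9 genes had a ratio above 0 in both sexes, as did 27.9% of all genes tested.

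Of the leukocyte genes, coro1a encodes coronin-1A, which binds actin filaments in leukocytes. It had 307 counts (23.4 CPM) in female atrn-/- against 171 counts (19.5 CPM) in female WT, and 346 counts (21.5 CPM) in male atrn-/- against 241 counts (15.1 CPM) in male WT. Both mutant libraries lay above both wild-type libraries, with male WT the lowest. The log2 ratio was 0.26 in females (95% interval -0.01 to 0.54) and 0.51 in males (95% interval 0.27 to 0.75). Over both sexes it was 0.39 (SE 0.172, adjusted p = 0.569 in edgeR's test), and with each library left out it lay between 0.20 and 0.58. In the reference gene table coro1a overlaps cldni, which had between 10 and 21 counts per library, and reads of overlapping genes could be assigned to either.

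L-plastin, the product of lcp1, bundles actin and is a common antibody target for leukocytes of the zebrafish. Its gene had 79 counts (6.02 CPM) in female atrn-/- against 48 counts (5.46 CPM) in female WT, and 60 counts (3.72 CPM) in male atrn-/- against 38 counts (2.38 CPM) in male WT. The mutant library was above the wild-type library of its own sex, but female WT was above male atrn-/-, so the genotypes overlapped. The log2 ratio was 0.14 in females (95% interval -0.39 to 0.69) and 0.62 in males (95% interval 0.04 to 1.27), and 0.39 over both sexes (SE 0.319, adjusted p = 0.778 in edgeR's test). Without the male WT library this value was -0.17, and without female atrn-/- it was -0.04, in fits where sex and genotype are mixed.

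The CD45 gene ptprc, a phosphatase of leukocytes, had 308 counts (23.5 CPM) in female atrn-/- against 276 counts (31.4 CPM) in female WT, and 402 counts (24.9 CPM) in male atrn-/- against 373 counts (23.3 CPM) in male WT. Female WT stood above the other 3 libraries, which lay close together. The log2 ratio was -0.42 in females (95% interval -0.66 to -0.18) and 0.10 in males (95% interval -0.11 to 0.30). The combined log2 fold change was -0.16 (SE 0.179, adjusted p = 0.844 in edgeR's test), and without female WT it was 0.06.

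**Figure D2:**
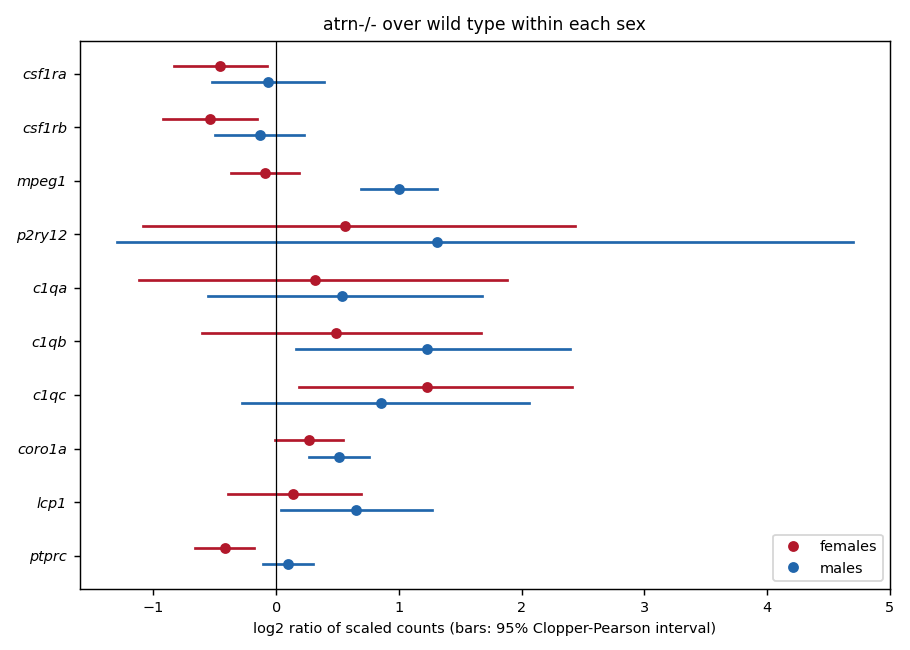
Log2 ratio of scaled counts of atrn-/- over wild type within each sex, without a prior count, with 95% Clopper-Pearson intervals (counting error only). In males the intervals of mpeg1, c1qb, coro1a and lcp1 lie above 0, and in females that of c1qc lies above 0 and those of csf1ra, csf1rb and ptprc lie below 0.

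Between the genotypes, edgeR's quasi-likelihood test gave 0 of these 9 an adjusted p under 0.05, as against 42 of the 19943 genes tested (0.211%), with 0.0652% higher and 0.145% lower in the mutants. At an unadjusted p under 0.05 there were also 0 of the 9, as against 9.07% of all genes, and a DESeq2 Wald test called 0 with adjustment and 0 without. Of the 9, 4 genes had both mutant libraries above both wild-type libraries (c1qa, c1qb, c1qc and coro1a), as did 18.6% of all genes tested, and 0 had both below, as did 19.2%. In males the counting interval lay above 0 for 4 of the 9 genes and below 0 for 0, as against 20.3% and 21.3% of all genes. In females it lay above 0 for 1 and below 0 for 3, as against 18.4% of all genes in each direction. In males c1qb was at least 2-fold higher in the mutant (2.73% of all genes), and in females c1qc was (3.36% of all genes), while 0 of the 9 were at least 2-fold lower in either sex (2.4% of all genes in males and 4.47% in females).

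The median log2 ratio of the 9 genes was 0.14 in females and 0.51 in males, beside 0.00 and -0.01 over all genes tested. Over both sexes the median was 0.39. It was -0.17 without the male WT library, in a fit where sex and genotype are mixed. Over the 6 genes that averaged 50 counts or more it was 0.11. Over those 6 genes the median was -0.26 in females, a turn of sign, and 0.30 in males. Male WT was the lowest library for 6 of the 9 genes (mpeg1, c1qb, c1qc, coro1a, lcp1 and ptprc), as it was for 26.2% of all genes tested. It was the highest for 0 of the 9, as against 27.5% of all genes. Female atrn-/- was the lowest for 0 of the 9 (25.0% of all genes) and the highest for 4, c1qb, c1qc, coro1a and lcp1 (24.3%). Female WT was the highest for csf1ra, csf1rb, mpeg1 and ptprc (26.9%) and the lowest for c1qa (27.9%). Male atrn-/- was the lowest for both receptor genes (21.0%) and the highest for c1qa (21.3%).

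Females were set against males over both genotypes, with genotype as a covariate. Here edgeR's quasi-likelihood test gave an adjusted p under 0.05 to 0 of the 9, as against 28 of all genes tested (0.14%), with 0.1% higher and 0.0401% lower in females. At an unadjusted p under 0.05, 3 of the 9 genes were higher in females (csf1ra, mpeg1 and lcp1), as were 4.38% of all genes, and 0 were lower, as were 3.19% (7.57% in either direction), and a DESeq2 Wald test gave 2 of the 9 (csf1ra and mpeg1). The log2 fold change of females over males was 1.11 for csf1ra (SE 0.242, adjusted p = 0.379), or 2.15-fold, 0.93 for lcp1 (SE 0.320, adjusted p = 0.605) and 0.83 for mpeg1 (SE 0.274, adjusted p = 0.596). It was 0.42 for csf1rb (SE 0.227, adjusted p = 0.713), the other gene of the 9 whose female libraries both lay above the male ones. The untested gene p2ry12 had the same order, at 2 to 11 counts per library. Such a lack of overlap, females higher, held for 18.6% of all genes tested, and the opposite order held for 0 of the 9 genes and 17.7% of all genes. Other lists also had genes at an unadjusted p under 0.05 in edgeR's sex test. Higher and lower in females were 8 and 0 of 28 other microglia and macrophage genes, and 5 and 0 of 34 leukocyte signalling and actin genes. They were 1 and 2 of 16 complement genes, and 21 and 0 of 29 skeletal muscle genes. Of these 29 muscle genes, 9 were higher in females at an adjusted p under 0.05 in edgeR's test, as were 20 of all genes tested. Female WT was the highest library for 26 of the 29 (26.9% of all genes).

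Within the mutants, csf1ra was higher in female atrn-/- than in male atrn-/- by a log2 ratio of 0.89 (95% interval 0.50 to 1.33), and within the wild types it was higher in female WT than in male WT by 1.28 (95% interval 0.89 to 1.73). For mpeg1 the ratios of female over male were 0.30 in the mutants (95% interval 0.05 to 0.56) and 1.38 in the wild types (95% interval 1.07 to 1.73). For lcp1 they were 0.67 in the mutants (95% interval 0.19 to 1.204) and 1.15 in the wild types (95% interval 0.56 to 1.86). These 3 genes had intervals above 0 in both genotypes, as did 5.79% of all genes tested, and 0 of the 9 had intervals below 0 in both (5.42%). In the mutants alone the interval was above 0 for 4 of the 9, c1qc being the fourth, and below 0 for 0, as for 17.8% of all genes each way. In the wild types it was above 0 for 6 (csf1ra, csf1rb, mpeg1, coro1a, lcp1 and ptprc; 19.4% of all genes) and below 0 for 0 (20.4%). The median of the 9 genes was 0.44 in the test over both genotypes, beside -0.01 over all genes, and it was 1.09 without male atrn-/-. In this test the smallest adjusted p of any of the 9 genes under the other settings was 0.0665, for csf1ra with no filter on low counts.

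**Figure D3:**
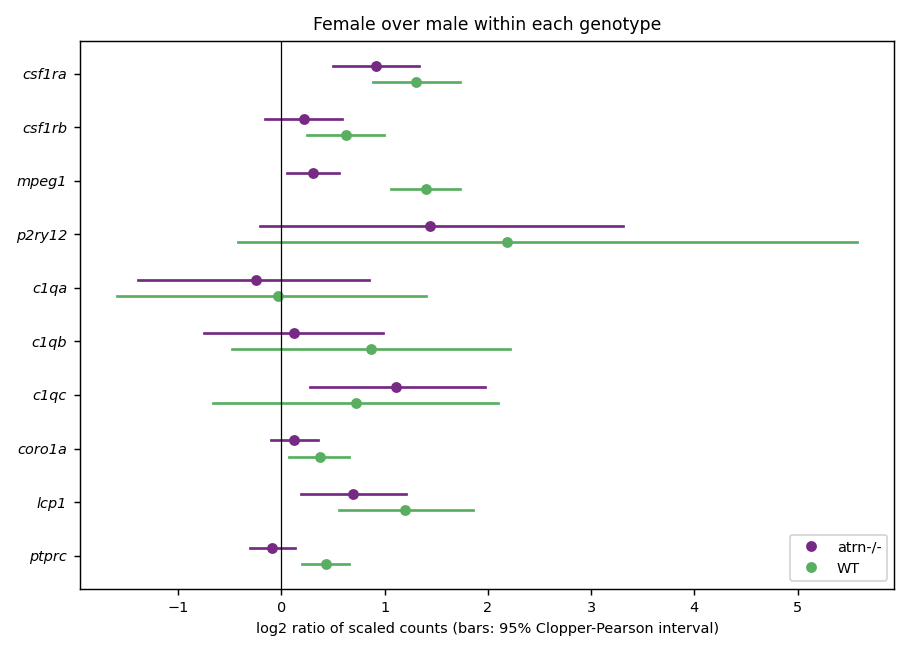
Log2 ratio of scaled counts of females over males within each genotype, without a prior count, with 95% Clopper-Pearson intervals (counting error only). The intervals of csf1ra, mpeg1 and lcp1 lie above 0 in both genotypes, and for mpeg1 the interval of the mutants (0.05 to 0.56) lies below that of the wild types (1.07 to 1.73).

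Of the ligand genes of the CSF1 receptors, il34 and csf1b had few or no counts and csf1a enough to be tested. The gene il34, whose product draws macrophages into the larval zebrafish brain, had 0 counts in female atrn-/- and female WT, 1 count in male atrn-/- and 0 in male WT. With 3 counts as the limit that a count of 0 allows, il34 could reach 0.229 CPM in female atrn-/-, 0.342 CPM in female WT and 0.188 CPM in male WT, a limit that covers counting error only. The colony-stimulating factor gene csf1a had 15 counts in female atrn-/- against 8 in female WT and 21 in male atrn-/- against 30 in male WT (log2 fold change -0.16, adjusted p = 0.958 in edgeR's test). Its copy csf1b had 0 counts in both female libraries, 6 in male atrn-/- and 3 in male WT.

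Of the myeloid transcription factor genes tested, spi1a, spi1b and irf8 had ratios of opposite signs in the sexes. The 5 others, mafba, mafbb, cebpa, cebpb and irf5, had ratios above 0 in both sexes. The PU.1 gene spi1a had 73 counts in female atrn-/- against 89 in female WT, and 83 in male atrn-/- against 49 in male WT, with log2 ratios of -0.85 in females (95% interval -1.33 to -0.40) and 0.72 in males (95% interval 0.22 to 1.29). Its relative spi1b had 59 counts in female atrn-/- against 30 in female WT, and 36 in male atrn-/- against 58 in male WT, with log2 ratios of 0.38 in females (95% interval -0.26 to 1.08) and -0.67 in males (95% interval -1.34 to -0.08). The 2 copies had opposite signs in each sex. The gene irf8, which zebrafish need to form microglia, had 66 counts in female atrn-/- against 52 in female WT, and 80 in male atrn-/- against 58 in male WT. Scaled, irf8 was at 5.03 CPM in female atrn-/- against 5.92 CPM in female WT, and at 4.96 CPM in male atrn-/- against 3.63 CPM in male WT, with log2 ratios of -0.23 in females (95% interval -0.78 to 0.32) and 0.44 in males (95% interval -0.05 to 0.97). The adjusted p of edgeR's test was 0.975 for spi1a, 0.942 for spi1b and 0.946 for irf8. The regulators with the highest mean CPM were the transcription factor genes mafba, cebpa and cebpb, with adjusted p = 0.923, 0.663 and 0.583 in that test. Of the ligands and regulators, 14 were found, 9 were tested and 0 had an adjusted p under 0.05. Of these 9, 5 had a ratio above 0 in both sexes (27.9% of all genes) and 0 below 0 in both (28.5%). Both mutant libraries lay above both wild-type libraries for 4 of them (18.6% of all genes) and below both for 0 (19.2%).

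Of 40 other microglia and macrophage genes listed, 36 were in the table, 28 were tested and 0 were called between the genotypes. At an unadjusted p under 0.05, 3 were higher and 1 lower in the mutants, as against 4.41% and 4.66% of all genes. In males 21 of the 28 had a ratio above 0, as did 49.2% of all genes, with a median of 0.51, and in females 11 of the 28 did, as did 50.2% of all genes, with a median of -0.08. Male WT was the lowest library for 18 of the 28, which held for 26.2% of all genes. The gene with the highest mean CPM was cd74a, the invariant chain of antigen presentation, with 243 CPM in female atrn-/- against 209 CPM in female WT, and 224 CPM in male atrn-/- against 154 CPM in male WT. Both mutant libraries of cd74a lay above both wild-type libraries, and its log2 fold change was 0.38 (SE 0.117, adjusted p = 0.401 in edgeR's test). The next were aif1l and cd63, a relative of the microglial protein IBA1 and a membrane protein of lysosomes, with adjusted p = 0.802 and 0.611 in the same test.

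Other complement genes had a median near that of all genes in males and below it in females. Of 28 complement genes found, 16 were tested and 0 were called, with a median log2 ratio of -0.19 in females and 0.09 in males. The pore-forming component gene c7a had 298 counts in female atrn-/- against 377 in female WT, and 408 in male atrn-/- against 133 in male WT. Its log2 ratio was -0.91 in females (95% interval -1.14 to -0.69) and 1.59 in males (95% interval 1.32 to 1.90). The chaperone gene calr and the component gene c7b had adjusted p = 0.803 and 0.701 in edgeR's test, against 0.907 for c7a. The genes c9, cfb, cfhl1 and serping1 had 0 counts in all libraries.

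Other leukocyte signalling and actin genes (34 tested) and inflammatory genes (15 tested) had 0 genes called each. Their median log2 ratios were -0.04 and -0.07 in females, and 0.08 and 0.13 in males. The first of the leukocyte list by mean CPM was coro1cb, a coronin related to coro1a, with adjusted p = 0.657 in edgeR's test. It had 4239 counts in female atrn-/- against 2425 in female WT, and 5748 in male atrn-/- against 5218 in male WT. These counts are not scaled for depth, which was 13116358 counts in female atrn-/- and 8654693 in female WT. The next by mean CPM, arhgdig and csk, had adjusted p = 0.870 and 0.982, and of the inflammatory genes nfkbiab, sqstm1 and mmp9 had 0.739, 0.997 and 0.942.

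**Figure D4:**
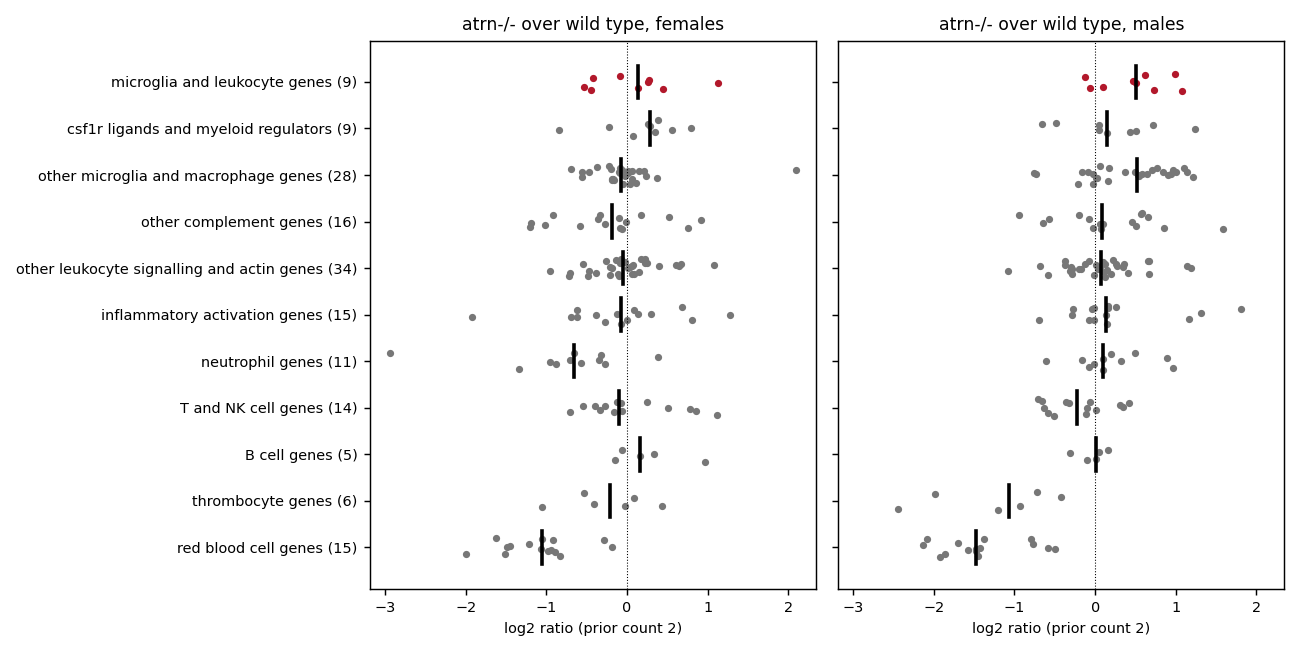
Log2 ratio of atrn-/- over wild type (prior count 2) in females and in males for the tested genes of each list, 1 point per gene, with the number of genes in parentheses and the median as a bar. The microglia and leukocyte genes have a median of 0.14 in females and 0.51 in males, and the red blood cell genes of -1.05 in females and -1.48 in males.

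Genes of other blood and vessel cells, which a brain sample can hold, were summed in each library. Neutrophil genes summed to 96.3 CPM in female atrn-/- against 152 CPM in female WT, and to 107 CPM in male atrn-/- against 121 CPM in male WT. Of 11 tested, 9 were highest in female WT (26.9% of all genes tested), and cxcr1 and cxcr2 were at 0 counts in all libraries. Female WT was also the highest library for csf1ra, csf1rb, mpeg1 and ptprc. T and NK cell genes summed to 428 CPM in female atrn-/- against 449 CPM in female WT, and to 392 CPM in male atrn-/- against 426 CPM in male WT. B cell genes lay between 920 and 971 CPM in the 4 libraries, with 5 of 11 found having enough counts to test. A listed gene can also be expressed by other cells of the brain, so these sums are not amounts of a cell type.

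Among the red blood cell genes, 9 of 15 tested were lower in the mutants at an adjusted p under 0.05, as against 0.145% of all genes. These were the globin genes hbba1, hbba2, hbaa1, hbaa2 and ba1l and the genes nt5c2l1, slc4a1a, sptb and epb41b. Thrombocyte genes summed to 27.7 CPM in female atrn-/- against 29.6 CPM in female WT, and to 24.1 CPM in male atrn-/- against 50.1 CPM in male WT. Of these genes 6 of 6 tested were highest in male WT, as were 27.5% of all genes tested. Endothelial and perivascular genes summed to 362 CPM in female atrn-/- against 329 CPM in female WT, and to 320 CPM in male atrn-/- against 262 CPM in male WT, and 13 of 19 were lowest in male WT. Oligodendrocyte genes summed to 12411 CPM in female atrn-/- against 14328 CPM in female WT. They summed to 12841 CPM in male atrn-/- against 10655 CPM in male WT, and 9 of 12 were lowest in male WT. Of the neuron genes 7 of 20 were lowest in male WT, and of the radial glia and astroglial genes 4 of 17. Male WT was the lowest library for 26.2% of all genes tested. It was the lowest for 6 of the 9 microglia and leukocyte genes. It was also high in red blood cell and thrombocyte genes and low in vessel and oligodendrocyte genes. The part of these other genes in the male differences was not tested.

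Because csf1ra is also expressed by pigment cells, a list of pigment cell genes was added after the values had been seen. Its genes summed to 116 CPM in female atrn-/- and 116 CPM in female WT, and to 112 CPM in male atrn-/- against 97.3 CPM in male WT. Of 14 tested, 11 had a log2 fold change of females over males above 0, as did 9590 of all 19943 genes tested. The median of the 14 was 0.23, beside -0.01 over all genes, and 0 had an adjusted p under 0.05 in edgeR's sex test. The xanthophore gene aox5 had 4 counts in female atrn-/- against 0 in female WT and 1 in male atrn-/- against 3 in male WT, and the melanin synthesis gene tyr was at 0 counts in all libraries. The muscle genes were highest in female WT, as csf1ra was, and the part of pigment or muscle RNA in the sex difference of csf1ra was not tested.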

How the data were processed

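Raw read counts per gene were deposited by the authors for 4 brain libraries, 1 per sex and genotype. Their methods name MapSplice as the aligner, and the submitters' processing notes name HISAT2 and the zebrafish build GRCz10. The annotation, the counting program and its use of strand are not given in the sources used here. RPKM values and EB-Seq, which the study used, were not used here.

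Total counts lay between 8654693 and 16254750. Scaling was by TMM (edgeR 4.0.16, R 4.3.3), and 19943 genes averaging 10 counts or more were tested. CPM are counts scaled to a library of 1000000. Within a sex, log2 ratios had a prior count of 2. Their exact Clopper-Pearson 95% intervals were computed from the counts without a prior count, and like the Poisson intervals cover counting error only. The 4 libraries were fitted jointly on sex and genotype by edgeR's quasi-likelihood method, leaving 1 residual degree of freedom, and p-values were adjusted after Benjamini and Hochberg over all genes tested. That test reports no standard error. Each SE given is the absolute log2 fold change divided by the square root of the test's F statistic. The procedure was tested on simulated data. The libraries of a genotype are 1 of each sex, and no sex and genotype has a second library, so p-values measure only the spread that the fit of sex and genotype leaves between these 4 libraries. The alternatives were library totals or DESeq2 1.42.0 size factors, its Wald test, no low-count filter or one at 50 counts, prior counts of 0.5 or 5, a 1.5-fold threshold, a fit of only the term tested, and omission of each library.

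The genes and lists were chosen with earlier results of these data known. Named are the 10 genes, the ligands and regulators of the CSF1 receptors, the 3 genes of highest mean CPM in the lists described gene by gene, and the red blood cell genes past the adjusted threshold. Others were named with their values in view. Of the 10, 8 were matched by symbol, mpeg1 by a synonym and p2ry12 by gene number in a RefSeq gene table of GRCz12tu, from which no coordinates were used. CPM are not scaled by gene length, so this ranking served to choose genes and does not compare their RNA levels. Sequences are not shown here.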

Additional observations from a re-analysis of the deposited data

Results flagged for a closer look

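Several genes had log2 ratios of atrn-/- over wild type with opposite signs in females and males. Opposite signs were common, since only 27.9% of all genes tested were above 0 in both sexes and 28.5% below 0 in both. Of the 9 microglia and leukocyte genes tested, 5 were above 0 in both sexes and 2 below 0 in both. Of the 9 ligands and regulators tested, these numbers were 5 and 0. With 1 library per sex and genotype, the difference between the sexes was not tested. Among the microglia and leukocyte genes, those with opposite signs were mpeg1, at -0.093 in females and 0.986 in males, and ptprc, at -0.418 in females and 0.096 in males. Among the ligands and regulators, csf1a was at 0.287 in females and -0.481 in males, spi1a at -0.847 in females and 0.721 in males, spi1b at 0.383 in females and -0.665 in males, and irf8 at -0.228 in females and 0.437 in males. Of the complement genes, c7b was at -0.062 in females and 0.662 in males, and c7a at -0.913 in females and 1.588 in males. Of the leukocyte and inflammatory genes, the kinase gene csk was at -0.132 in females and 0.096 in males, sqstm1 at 0.004 in females and -0.01 in males, and the matrix protease gene mmp9 at -0.38 in females and 0.16 in males. The 95% counting intervals of csf1a, irf8, sqstm1 and mmp9 included 0 in both sexes. Those of mpeg1, spi1b and c7b in females and of ptprc in males also included 0.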

How the results depend on the processing

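In both tests, 0 of the microglia and leukocyte genes tested had an adjusted p under 0.05 with library totals, DESeq2 size factors, DESeq2's Wald test, only the term tested or each library left out (9 genes tested), with no filter (10 genes) or at a mean of at least 50 counts (6 genes, with no C1q gene). The genes called between the genotypes numbered 42, against 294 with no filter, 93 by DESeq2's Wald test, 5 with only genotype in the fit and between 4 and 56 with each library left out. Between the sexes they numbered 28, against 132 with no filter, 1 with only sex in the fit and between 1 and 78 with each library left out. Genes at least 2-fold different numbered 1562 in females and 1022 in males, against 3856 and 2592 with no filter, 485 and 296 at a mean of at least 50 counts, and 3749 and 2903 at 1.5-fold.

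The genotype median of the 9 genes, 0.39, was 0.11 at a mean of at least 50 counts (6 genes) and between -0.17 and 0.58 with each library left out. At a mean of at least 50 counts the female median was -0.26 in place of 0.14. The sex median, 0.44, was between 0.35 and 1.09. Leaving out 1 library turned the genotype direction of csf1ra (0.08 without male atrn-/- and 0.46 without female WT, range -0.85 to 0.46), mpeg1 (-0.24 without male WT, range -0.24 to 1.16), lcp1 (-0.17 without male WT and -0.04 without female atrn-/-, range -0.17 to 1.03) and ptprc (0.057 without female WT, range -0.38 to 0.057). It turned the sex direction of c1qa (0.15 without male atrn-/-, range -0.38 to 0.15), c1qb (-0.088 without male WT, range -0.088 to 1.13) and ptprc (-0.041 without female WT, range -0.041 to 0.39). These fits hold fewer samples and only the term tested, and assume that the lone library varies like the other group, so sex and genotype are then mixed. Other directions were kept. With 1 library per sex and genotype, no pairing of libraries was possible beyond the sex term of the main fit. Depth limits p2ry12, il34, csf1b and the C1q genes, which rest on at most 35 counts per library.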

Other observations

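Some genes outside the lists' most abundant members stood high in both mutant libraries, and they were picked with their values in view. The galectin-binding protein gene lgals3bpb, from the list of other microglia and macrophage genes, had 740 counts in female atrn-/- against 115 in female WT, and 732 in male atrn-/- against 360 in male WT. Its log2 fold change over both sexes was 1.52 (SE 0.249, adjusted p = 0.109 in edgeR's quasi-likelihood test). The inducible nitric oxide synthase gene nos2a had 111 counts in female atrn-/- against 30 in female WT, and 109 in male atrn-/- against 47 in male WT (log2 fold change 1.25, SE 0.278, adjusted p = 0.234 in the same test). The kinase gene btk, known from B cells and myeloid cells of mammals, had 40 counts in female atrn-/- against 12 in female WT, and 33 in male atrn-/- against 13 in male WT (log2 fold change 1.24, SE 0.478, adjusted p = 0.511 in the same test). For each of these genes both mutant libraries lay above both wild-type libraries, as for 18.6% of all genes tested, and none passed the adjusted threshold. Their lists also held genes with both mutant libraries below both wild-type libraries, as for 19.2% of all genes tested. Of the 28 other microglia and macrophage genes tested, 5 lay above and 1 below in this way. Of the 15 inflammatory genes 4 lay above and 2 below, and of the 34 leukocyte signalling and actin genes 7 and 6.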
